A study of Mus musculus with 9 samples.

Results

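Endothelial cells carry on their surface, or secrete, the proteins that decide whether blood clots on a vessel wall and whether a clot is dissolved again. The genes described here are 8 of them: Vwf, Thbd, Procr, F3, Tfpi, Plau, Plaur and Plat. They were taken by gene symbol from the deposited table, in which each symbol has 1 entry, so the set is 8 of 31232 listed genes. All 8 had enough counts to be tested, along with 15774 genes in all.

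The table comes from polyadenylated RNA of bEnd.3, a mouse brain endothelial line immortalised with the polyoma virus middle T antigen, grown on glass coverslips and exposed to flow in a parallel-plate chamber. Each of 3 flow groups has 3 libraries. PSS cells had laminar flow at 10 dyne/cm2, set by the submitters as the physiological shear of brain vessels, and HSS cells had laminar flow at 20 dyne/cm2, set for early intracranial aneurysm (IA). Vortex cells had vortex flow at 0.5 to 2 dyne/cm2, set for the late, enlarged aneurysm, so flow pattern and shear magnitude differ together between Vortex and either laminar group. The 3 groups share the cell line and carry no other agent or genetic change named in the labels, and there is no static group. How long flow lasted is not stated in the labels used here. The submitted RNA is described as mixed, and nothing says that replicates came from separate cultures, so p-values measure the spread between these libraries, which may be technical.

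Background on the genes is as follows. Von Willebrand factor (Vwf) is stored in the Weibel-Palade bodies of endothelium, captures platelets under flow and carries coagulation factor VIII. Tissue factor (F3) starts coagulation by binding factor VIIa. Tissue factor pathway inhibitor (Tfpi) blocks that complex, thrombomodulin (Thbd) turns thrombin into an activator of protein C, and the endothelial protein C receptor (Procr) presents protein C to thrombomodulin. Urokinase (Plau), held at the cell surface by its receptor (Plaur), and tissue plasminogen activator (Plat) turn plasminogen into plasmin, which dissolves fibrin. Quiescent endothelium is known for high thrombomodulin and low tissue factor, and laminar shear acting through the transcription factor KLF2 is known to raise thrombomodulin.

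The bases before the transcription start bear on these genes because several of them are textbook targets of AP-1 and NF-kappaB factors, whose genes are described further on. RefSeq promoter windows on GRCm38.p6 were matched for 4 of the 8 genes, Procr, F3, Tfpi with 2 starts, and Plaur, and not for Vwf, Thbd, Plau and Plat. The windows of the initiator F3 and of the receptors Procr and Plaur are printed, 250 bases upstream of the start, 5′ to 3′, with capitals for matches on either strand to TGANTCA (AP-1), GGANTTTCC (NF-kappaB) and GGGCGG (Sp1). They lie at chr3:121723287-121723536, chr2:155750967-155751216 and chr7:24462233-24462482, all on the + strand.
F3: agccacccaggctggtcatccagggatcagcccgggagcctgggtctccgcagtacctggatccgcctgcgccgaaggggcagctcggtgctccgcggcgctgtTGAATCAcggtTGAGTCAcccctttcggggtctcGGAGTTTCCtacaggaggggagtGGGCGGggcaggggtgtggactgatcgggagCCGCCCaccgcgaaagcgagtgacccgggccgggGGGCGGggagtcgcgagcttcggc
Procr: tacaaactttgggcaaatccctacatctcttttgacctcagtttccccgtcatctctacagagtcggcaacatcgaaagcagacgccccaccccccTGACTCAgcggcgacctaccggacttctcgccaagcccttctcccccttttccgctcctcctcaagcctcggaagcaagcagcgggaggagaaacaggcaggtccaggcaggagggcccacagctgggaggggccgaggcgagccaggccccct
Plaur: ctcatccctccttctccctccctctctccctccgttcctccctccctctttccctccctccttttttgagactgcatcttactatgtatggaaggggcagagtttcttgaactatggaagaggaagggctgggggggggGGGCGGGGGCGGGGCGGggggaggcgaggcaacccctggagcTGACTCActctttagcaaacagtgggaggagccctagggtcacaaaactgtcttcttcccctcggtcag

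The F3 window held 2 AP-1 matches, starting 146 and 135 bases before the start, 1 NF-kappaB match at 112 bases and 3 Sp1 matches at 89, 58 and 24 bases. In Procr there was 1 AP-1 match at 154 bases and none to the other motifs in capitals. Plaur held 1 AP-1 match at 69 bases and 3 Sp1 matches between 111 and 100 bases, neighbours in 1 GC-rich run. Neither Tfpi window held the AP-1 or NF-kappaB letters, and each held 1 Sp1 match. Among 32851 windows of the same length, 6.75% held TGANTCA, 1.07% GGANTTTCC and 32.7% GGGCGG. The letters GAGACC, known as a shear stress response element, occurred 2 times in F3 (208 and 118 bases) and not in Procr, Plaur or Tfpi, against 13.7% of all windows. The short ETS core GGAA was found in all 5 windows of these genes and in 93.4% of all windows, and in F3 it overlaps the NF-kappaB match. CACCC, bound by KLF factors, was found in F3, Procr and both Tfpi windows and in 52.0% of all windows, and 1 of its matches in F3 overlaps an AP-1 match. The first Tfpi window also held TATAAA, at 127 bases, as did 12.4% of all windows. These matches describe letters only.

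Library totals ranged from 17407217 to 22965802 counts. Pearson correlations of log2 CPM (counts relative to the library total, scaled by TMM) within a group were 0.992 to 0.993 for HSS, 0.977 to 0.992 for PSS and 0.852 to 0.962 for Vortex, in which replicate 2 stands apart. That library gave less signal to genes of low GC content and more to genes of high GC content than any other: the median log2 deviation was -1.41 in the lowest eighth of GC and 0.90 in the highest, where the next largest pair, in Vortex replicate 3, was -0.45 and 0.27. Pecam1, a defining endothelial marker, had 30567 counts there and 23 to 1116 in the other 8 libraries. The 12 endothelial markers checked, all of them tested, summed to 2317 to 2837 CPM in PSS, 954 to 986 in HSS, and 1327, 7619 and 1741 in Vortex replicates 1 to 3. Cldn5 was at 0 counts in HSS replicates 2 and 3. Differences of the 8 genes in Vortex are therefore given with and without replicate 2. That library also widens the spread used for HSS against PSS, since 1 model was fitted to all 9 libraries.

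In high laminar shear the set was led by the loss of Vwf and a rise of Plaur. Of the 8 genes, 2 were called in HSS against PSS by edgeR's quasi-likelihood test at a Benjamini-Hochberg adjusted p under 0.05, where 7.87% of all tested genes were called. Vwf fell and Plaur rose, and 4 of the 8 had an unadjusted p under 0.05. Without Vortex replicate 2, Procr and Plau were also called lower, which made 4 of 8, beside 29.1% of all genes. The CPM ranges of HSS and PSS did not overlap for 7 of the 8 genes, all but F3, against 56.2% of all genes. The median log2 change of the set was -0.55, beside -0.0049 over all tested genes.

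In Vortex against PSS, the urokinase receptor Plaur and the plasminogen activator Plat rose and the inhibitor Tfpi fell. These 3 of 8 genes were called beside 13.4% of all tested genes, and 4 of the 8 had an unadjusted p under 0.05, beside 4706 of 15774 genes. Without Vortex replicate 2 the called genes were 5 of 8, with Thbd, Plaur and Plat higher and Vwf and Tfpi lower, beside 36.3% of all genes. Ranges were apart for Thbd, Tfpi, Plaur and Plat, 4 of 8, against 30.0% of all genes. The median log2 change was 0.47 in the set and 0.11 over all tested genes. When only the 6 compared libraries were fitted, 0 of the 8 genes were called by edgeR, beside 0.488% of all genes called. There 4 of the 8 had an unadjusted p under 0.05, beside 3102 of 15149 genes. Of all called genes, 62.4% were higher in Vortex by edgeR and 33.4% by limma on log2(FPKM + 1), where the all-gene median was -0.07.

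Against high laminar shear, 4 of the 8 genes, Vwf, Procr, Plau and Plat, were higher in Vortex, beside 7.04% of all tested genes called in either direction and 4.37% called higher. Of the 8 genes 5 had an unadjusted p under 0.05, beside 4236 of 15774 genes. Thbd joined the 4 called genes without Vortex replicate 2, 5 of 8 genes beside 23.9% of all. Fitting the Vortex and HSS libraries alone, again without that library, called 7 of 8, with F3 higher and Tfpi lower besides these 5, beside 27.3% of all genes. Ranges overlapped for Thbd and F3 and were apart for 6 of 8, against 36.4% of all genes. The median log2 change was 1.03, beside 0.10 over all tested genes. Leaving out any 1 of the HSS libraries ended all 4 calls, with adjusted p between 0.107 and 0.171, and a fit of the 6 compared libraries called 0 of the 8 genes by edgeR, beside 0.438% of all genes called. There 6 of the 8 had an unadjusted p under 0.05, beside 3289 of 15063 genes. The share of called genes that were higher was 62.1% by edgeR and 33.4% by limma on log2(FPKM + 1), where the all-gene median moved from 0.10 to -0.06. HSS against PSS and Vortex against PSS share the PSS libraries, and Vortex against HSS shares libraries with both, so the 3 comparisons are not independent.

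**Figure D1:**
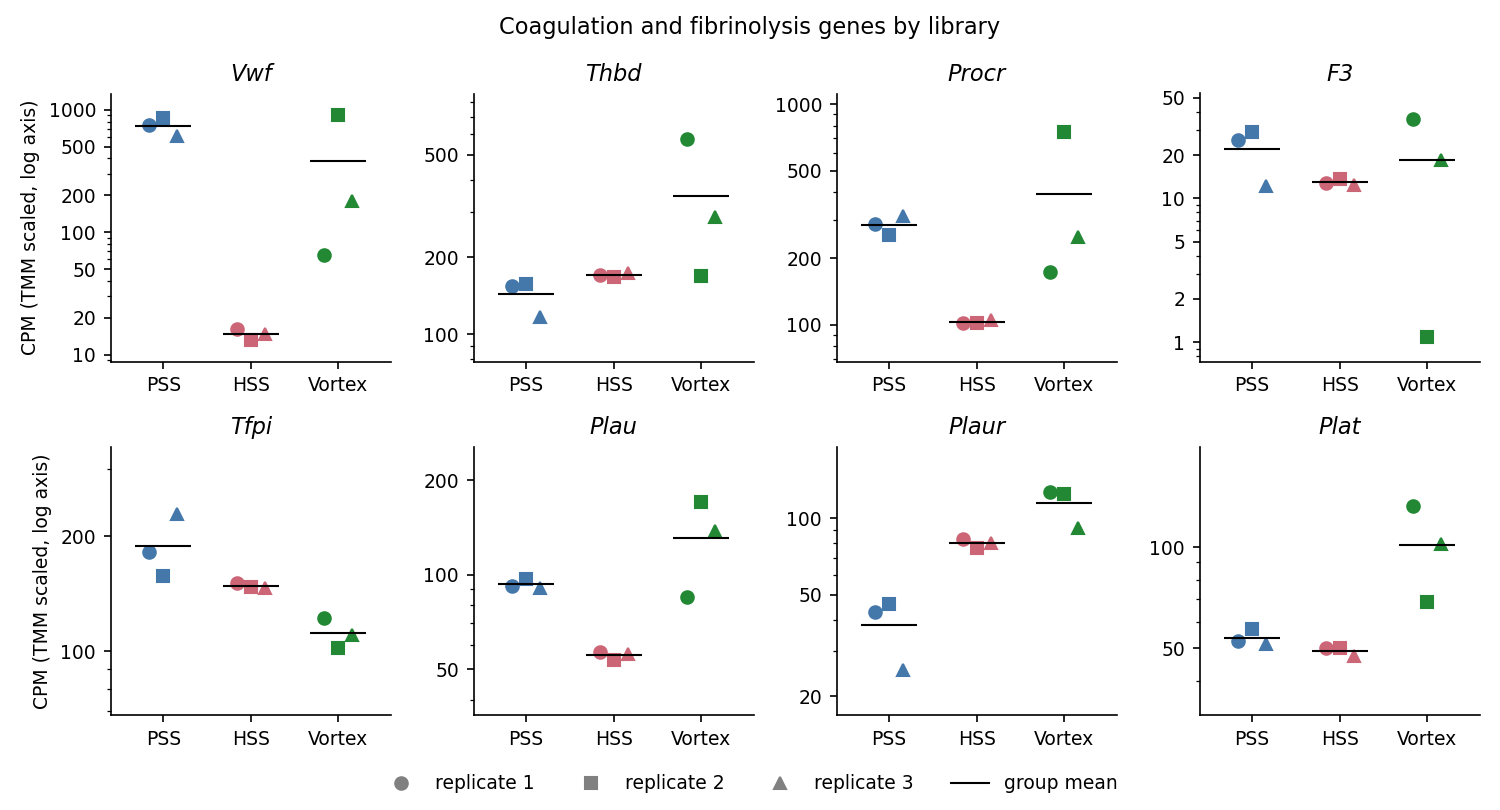
CPM of the 8 genes in each library (log axes, 1 panel per gene), with symbols for replicates 1 to 3 and a line for the group mean. Vwf sits between 611 and 855 CPM in PSS and between 13.1 and 16.2 in HSS, while the Vortex libraries spread from 64.8 to 903.

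Vwf (ENSMUSG00000001930) stood at 755, 855 and 611 CPM in PSS replicates 1 to 3, at 16.2, 13.1 and 14.9 in HSS, and at 64.8, 903 and 180 in Vortex. All HSS libraries were far below all PSS libraries, and the Vortex libraries ran from 4.40-fold over the HSS mean to above every PSS library. In HSS Vwf fell by 5.65 log2 units (SE 0.89, adjusted p 0.00748), from 740 ± 123 to 14.7 ± 1.56 CPM (SD, n = 3), which is 50.2-fold. The adjusted p was 0.0518 without HSS replicate 2 and 0.0508 without HSS replicate 3, and 4.21e-06 without Vortex replicate 2. In RNA from whole cultures, fewer cells that make a transcript and less of it per cell cannot be told apart.

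For Vwf in Vortex against PSS the log2 difference was -0.95 (SE 0.74, adjusted p 0.429). It was -2.59 without Vortex replicate 2 (SE 0.37, adjusted p 0.000593), where both remaining libraries, 11.4-fold and 4.11-fold under the PSS mean, lay below every PSS library. Against HSS, Vwf was higher in all 3 Vortex libraries, by 4.70 log2 units (SE 0.85, adjusted p 0.0179), and by 3.06 without Vortex replicate 2 (adjusted p 0.000495). Vwf transcript has a GC content of 56.5%, higher than 86.0% of tested genes with a value, and the GC trend of Vortex replicate 2 moves with its high reading there. The part of that trend in the reading was not tested beyond the fit with it removed, in which no call of Vwf changed.

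Among the anticoagulant genes, Thbd (ENSMUSG00000074743) read 154, 158 and 117 CPM in PSS, 171, 167 and 174 in HSS and 578, 170 and 286 in Vortex. HSS libraries lay just above the PSS libraries, and Vortex replicates 1 and 3 lay above both groups while replicate 2 sat within the HSS range. The log2 difference was 0.25 in HSS against PSS (SE 0.38, adjusted p 0.752), 1.27 in Vortex against PSS (SE 0.38, adjusted p 0.0573) and 1.01 in Vortex against HSS (SE 0.38, adjusted p 0.128). None of these passed in this fit. Thbd in Vortex against PSS was called by the DESeq2 Wald test (22.2% of all genes called) and by edgeR with no filter beyond 1 count (4.52%). With Vortex replicate 2 left out, Thbd rose by 1.59 against PSS (adjusted p 0.000916) and by 1.34 against HSS (adjusted p 0.00479).

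Procr (ENSMUSG00000027611) was measured at 285, 256 and 312 CPM in PSS, at 102, 102 and 105 in HSS, and at 173, 747 and 250 in Vortex. The HSS libraries were the lowest and nearly equal, and the Vortex libraries spanned the PSS range on both sides. In HSS against PSS the log2 difference was -1.47 (SE 0.46, adjusted p 0.0898), which did not pass, and it passed without Vortex replicate 2 at the same size (adjusted p 7.22e-05). Against PSS the Vortex difference was 0.46 (SE 0.45, adjusted p 0.549) with all libraries, -0.43 without replicate 2 (adjusted p 0.0696) and -0.0025 by limma on log2(FPKM + 1), so its sign is not settled. Procr rose in Vortex against HSS, by 1.93 (SE 0.47, adjusted p 0.0424), or by 1.04 without Vortex replicate 2 (adjusted p 0.00222). That call was also lost without any 1 of the PSS libraries (adjusted p 0.0847, 0.0748 and 0.0677).

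Tfpi (ENSMUSG00000027082) differed in its pattern from the other anticoagulant genes. It read 181, 157 and 228 CPM in PSS, 151, 147 and 147 in HSS and 123, 102 and 111 in Vortex, and the 3 ranges did not overlap. Tfpi fell by 0.76 log2 units in Vortex against PSS (SE 0.18, adjusted p 0.0278), and by 0.70 without Vortex replicate 2 (adjusted p 0.00816). The differences of -0.35 in HSS against PSS (SE 0.18, adjusted p 0.293) and -0.41 in Vortex against HSS (SE 0.18, adjusted p 0.191) did not pass. The latter was -0.35 with Vortex replicate 2 left out (adjusted p 0.142), and passed there when only these 2 groups were fitted (adjusted p 0.0296). Tfpi transcript is rich in A and T, with a GC content of 39.7% that is above only 5.97% of tested genes, and with the GC trend of each library removed the Vortex difference was -0.04 (adjusted p 0.943). The call was also lost without PSS replicates 1 or 3 (adjusted p 0.0961 and 0.068), any HSS library (0.0668 to 0.0674) or Vortex replicate 3 (0.0739).

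F3 (ENSMUSG00000028128), the initiator, had the widest ratio of highest to lowest library of the 8 genes within Vortex. It read 25.6, 28.9 and 12.1 CPM in PSS, 12.8, 13.7 and 12.4 in HSS and 35.7, 1.10 and 18.6 in Vortex. PSS replicate 3 sat at the HSS level, and Vortex replicate 2, with 23 counts, lay 20.3-fold under the PSS mean while replicate 1 lay 1.61-fold above it. With all libraries no F3 comparison passed. The log2 differences were -0.78 in HSS against PSS (SE 0.85, adjusted p 0.648), -0.27 in Vortex against PSS (SE 0.84, adjusted p 0.863) and 0.51 in Vortex against HSS (SE 0.84, adjusted p 0.743). Leaving out Vortex replicate 2 made them -0.78, 0.28 and 1.06, with adjusted p of 0.0941, 0.553 and 0.0518, and the last passed when only the Vortex and HSS libraries were fitted (adjusted p 0.0389). Against HSS the sign turned to -0.21 by limma on log2(FPKM + 1) and to -0.40 without Vortex replicate 1.

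**Figure D2:**
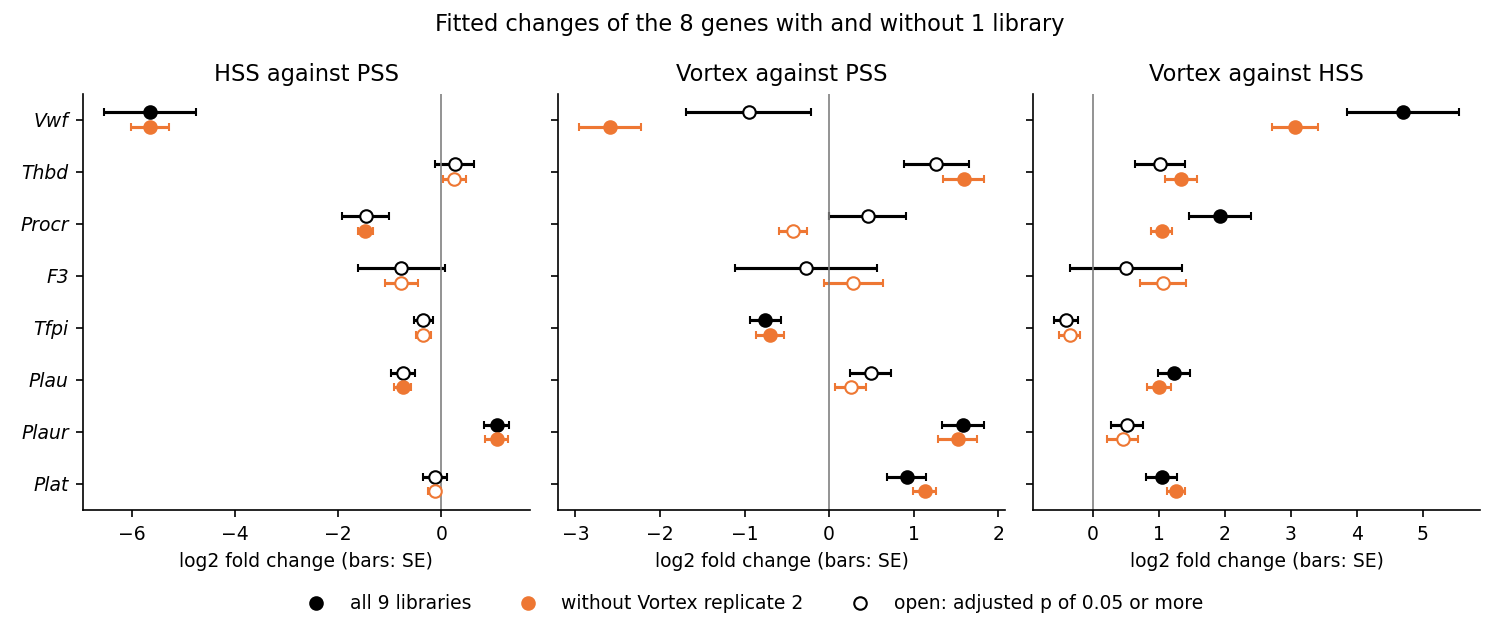
Log2 fold change of each gene in the 3 comparisons (points; bars are 1 SE), fitted with all 9 libraries in black and without Vortex replicate 2 in orange, with open symbols for an adjusted p of 0.05 or more. Vwf in HSS against PSS stays at -5.65 in both fits, whereas Vwf in Vortex against PSS moves from -0.95 to -2.59.

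Of the plasminogen activators, Plau (ENSMUSG00000021822) was at 92.0, 96.8 and 91.1 CPM in PSS, at 57.0, 53.7 and 56.2 in HSS and at 84.9, 170 and 138 in Vortex. HSS was the lowest group with no overlap, and Vortex replicate 1 fell below the PSS libraries while the other two lay above them. The log2 difference of -0.75 in HSS against PSS (SE 0.24, adjusted p 0.0964) passed only without Vortex replicate 1 or 2 (0.00758 without replicate 2), in a fit of the 6 compared libraries or by the DESeq2 Wald test (0.0289). Against PSS the Vortex difference was 0.49 (SE 0.24, adjusted p 0.206), and 0.25 with Vortex replicate 2 left out (adjusted p 0.302). Plau rose in Vortex against HSS by 1.24 (SE 0.24, adjusted p 0.0228), and by 1.00 without Vortex replicate 2 (adjusted p 0.00446), and the call was lost without PSS replicate 1 (0.0581).

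Plat (ENSMUSG00000031538) was higher under vortex flow than under either laminar flow. It read 52.6, 57.0 and 51.4 CPM in PSS, 50.0, 49.9 and 47.3 in HSS and 133, 68.6 and 102 in Vortex. All 3 Vortex libraries lay above every laminar library, with replicate 2 the nearest. Plat rose by 0.92 log2 units in Vortex against PSS (SE 0.23, adjusted p 0.0340) and by 1.04 against HSS (SE 0.24, adjusted p 0.0339), and by 1.13 and 1.26 without Vortex replicate 2 (adjusted p 0.000246 and 0.000425). Against PSS the call was lost without any other single library, with adjusted p from 0.0653 to 0.127, and against HSS also without PSS replicates 1 or 2 (0.0752 and 0.0612) or Vortex replicate 3 (0.0593). Both calls were lost by limma on log2(FPKM + 1) or log2(FPKM + 0.1), with the replicate number as a block and in a fit of the 6 compared libraries. The call against PSS was lost with no filter beyond 1 count as well. In HSS against PSS the difference was -0.13 (SE 0.23, adjusted p 0.801).

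Plaur (ENSMUSG00000046223), the urokinase receptor, rose under both altered flows. Its CPM were 42.7, 46.1 and 25.3 in PSS, 82.9, 76.2 and 79.8 in HSS and 127, 124 and 91.8 in Vortex, so the 3 groups stood in that order with no overlap. In HSS it rose by 1.07 log2 units (SE 0.25, adjusted p 0.0332), and this call was lost without any 1 PSS library (adjusted p 0.105, 0.0619 and 0.0683) or HSS library (0.131, 0.111 and 0.124). In Vortex against PSS it rose by 1.58 (SE 0.25, adjusted p 0.00634). That was the only call of the 8 genes against PSS that held with every single library left out in turn, at 1.52 without Vortex replicate 2 (adjusted p 0.000864). Summed CPM of 8 macrophage and leukocyte markers, of which 3 were tested, were also higher in HSS (22.4 to 25.5) and Vortex (22.5 to 56.4) than in PSS (7.22 to 7.93). Most of each sum came from Csf1r and Cd68. Csf1r read 1.36 to 2.79 CPM in PSS, 15.8 to 18.9 in HSS and 8.64 to 17.1 in Vortex. Cd68 read 3.69 to 4.96, 5.26 to 5.71 and 7.96 to 36.6. Ptprc, the defining marker, was at 0 or 1 count in every library, and Adgre1, Itgam, Fcer1g and Laptm5 were at 7 counts or fewer. The part of these markers in the rise of Plaur was not tested. The difference of Plaur between Vortex and HSS, 0.52 (SE 0.25, adjusted p 0.213), did not pass, nor did it with Vortex replicate 2 left out (0.45, adjusted p 0.182).

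**Figure D3:**
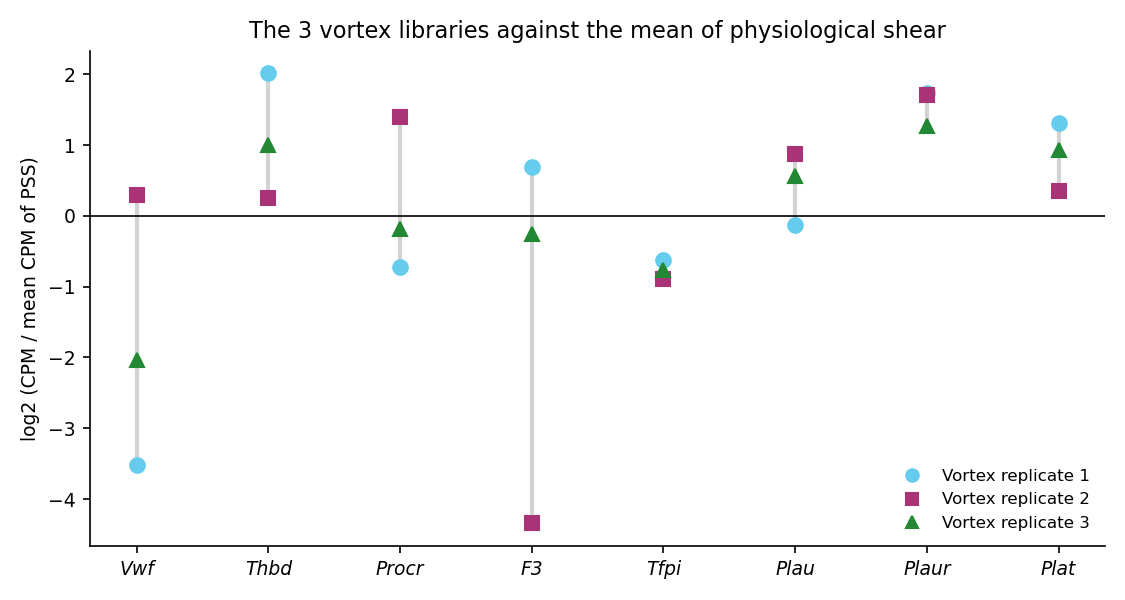
Log2 ratio of CPM in each Vortex library to the PSS mean, 1 column per gene. Replicate 2 is the highest for Vwf, Procr and Plau and the lowest for Thbd, F3, Tfpi and Plat, and the 3 libraries lie within 1.20-fold of each other for Tfpi and 32.6-fold for F3.

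The spread of the set within Vortex was uneven. The highest library exceeded the lowest by 13.9-fold for Vwf, 3.41-fold for Thbd, 4.32-fold for Procr, 32.6-fold for F3, 2.01-fold for Plau, 1.94-fold for Plat, 1.38-fold for Plaur and 1.20-fold for Tfpi. The coefficient of variation of Vwf, 119%, exceeded that of 98.6% of the 10932 genes whose mean reached 5 CPM, where the median was 34.6%. Tfpi, at 9.12%, varied more than only 7.43% of those genes. HSS libraries were close together, with a median coefficient of 3.91% over the same genes, and that of Vwf, 10.6%, was the highest of the set there. In PSS, F3 (40.0%) and Plaur (29.3%) varied most, beside a median of 13.8%, and in both genes replicate 3 was the low one. The 8 fibroblast markers checked summed to 110 CPM in Vortex replicate 2 and to 879 and 1045 in the other Vortex libraries. They summed to 664 to 891 in PSS and 1059 to 1118 in HSS. Thbd, F3 and Plat had their lowest Vortex readings in replicate 2, where Plat was still above every laminar library and Thbd above every PSS library. The part of the fibroblast markers in these readings was not tested.

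Levels of different genes were compared by FPKM, which divides by 1 length per gene, here 16064 bases for Vwf and 6241 for Plat. Whether these lengths match the transcripts made was not tested, and the order of genes depends on them. In PSS Procr led at 146 ± 11.04 FPKM (mean and SD of 3 libraries), above all others. Vwf (48.4), Plau (41.3), Thbd (40.4) and Tfpi (36.1) followed, each overlapping its neighbour in this order, and then Plaur (15.3), F3 (9.27) and Plat (9.01), whose neighbours overlapped as well. HSS kept Procr first at 51.7, followed by Thbd (46.8), Plaur (31.1), Tfpi (27.7), Plau (24.0), Plat (8.04), F3 (5.24) and Vwf at 0.938, and no neighbours overlapped. Vwf thus went from second to last of the 8 genes, and from the level below which 93.3% of tested genes lie to that of 24.4%. In Vortex the order was Procr (178 ± 139), Thbd (85.7), Plau (51.5), Plaur (40.4), Vwf (22.0), Tfpi (19.0), Plat (15.1) and F3 (6.78), and every neighbouring pair overlapped.

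Ratios within a library remove its scaling and set opposing activities side by side. Thbd over F3 was 4.09, 3.71 and 6.56 in PSS, 9.03, 8.28 and 9.56 in HSS and 10.98, 105 and 10.5 in Vortex, on the FPKM scale. The 3 groups did not overlap in this ratio, with PSS the lowest and Vortex the highest. The log2 differences were 0.95 in HSS against PSS, 2.31 in Vortex against PSS and 1.36 in Vortex against HSS, each with an exact two-sided permutation p of 0.1, the smallest that 3 against 3 libraries can give, and 0.2 after Benjamini-Hochberg adjustment over 12 tests, of which 9 are given here. Without Vortex replicate 2, in which F3 had 23 counts, the Vortex differences were 1.21 and 0.26.

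Tfpi over F3 showed no such order. It was 3.28, 2.52 and 8.71 in PSS, 5.44, 4.98 and 5.49 in HSS and 1.59, 43.2 and 2.76 in Vortex, with exact permutation p of 0.6 to 1. The Vortex log2 differences were 0.47 against PSS and 0.12 against HSS, and turned to -0.99 and -1.34 with Vortex replicate 2 left out. Plau over Plat was 4.61, 4.48 and 4.67 in PSS and 3.01, 2.84 and 3.13 in HSS, a log2 difference of -0.62 with no overlap (exact permutation p 0.1), and 1.68, 6.55 and 3.55 in Vortex, which overlapped both laminar groups. Its Vortex differences were -0.43 against PSS and 0.18 against HSS, and -0.91 and -0.29 with that library left out.

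**Figure D4:**
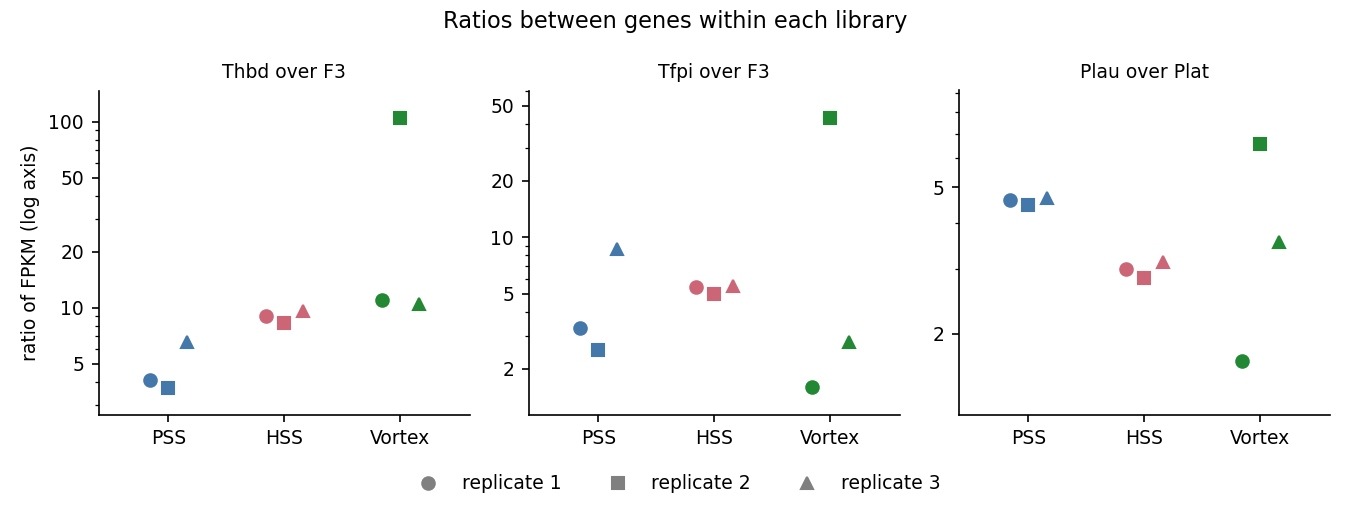
Ratios of FPKM of 3 gene pairs in each library (log axes), with symbols for replicates 1 to 3. Thbd over F3 does not overlap between the 3 groups, and Vortex replicate 2 stands far above the rest at 105.

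Across the 9 libraries some of the 8 genes moved side by side. These correlations of log2 CPM are descriptions over 9 libraries from 3 groups, 1 of which holds the library that stands apart. Pearson's r was 0.90 between Vwf and Procr, 0.92 between Procr and Plau and 0.80 between Vwf and Plau, the 3 genes with their highest Vortex reading in replicate 2. It was 0.91 between Thbd and Plat, both highest in Vortex replicate 1, and -0.92 between Tfpi and Plaur. Among 10508 named genes whose mean reached 5 CPM, those most like Vwf were Rasgrp3 and Mvd (r of 0.998 each), and those most like F3 were Med12l and Chd6 (0.997 each). The nearest for Thbd were Sgpl1 and Tuft1 (0.986 and 0.984), for Procr Csrp2 and Dysf (0.995 and 0.986), and for Tfpi Zik1 and Zfp207 (0.974 each). For Plau they were Lcp1 and Mansc1 (0.991 and 0.982), for Plaur Dtx2 and Slc27a1 (0.994 and 0.991), and for Plat Sil1 and Soat1 (0.986 and 0.984).

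Vwf was then set beside transcription factors known to act on endothelial genes, from a list of 14, all tested. In HSS against PSS, 2 of them rose and 3 fell, beside 7.87% of all genes called, and in Vortex against PSS 2 rose and 0 fell, beside 13.4%. With Vortex replicate 2 left out, 4 rose and 5 fell in HSS (29.1% of all genes called) and 5 rose and 4 fell in Vortex (36.3%). Erg, an ETS factor that maintains endothelial identity, read 60.5 to 70.1 CPM in PSS, 0.26 to 0.71 in HSS, and 1.26, 98.6 and 17.1 in Vortex replicates 1 to 3. It fell by 7.07 in HSS (SE 1.38, adjusted p 0.0171), a call that leaving out 1 PSS or HSS library ended each time (adjusted p up to 0.0936). Klf2 read 40.6 to 59.7 CPM in PSS, 6.56 to 6.84 in HSS and 12.7, 125 and 17.4 in Vortex, with a log2 difference of -2.91 in HSS (SE 0.78, adjusted p 0.0540; 4.24e-06 without Vortex replicate 2). In Vortex against PSS, Erg and Klf2 were not called with all libraries, and with replicate 2 left out they fell, at -2.79 (adjusted p 0.0116) and -1.75 (adjusted p 0.000204). Klf4 read 51.9 to 118 CPM in PSS, 71.6 to 73.4 in HSS and 81.7, 98.9 and 49.3 in Vortex, and was not called in HSS (-0.34, adjusted p 0.6055 by edgeR). Egr1 and Hif1a were highest in HSS (792 to 804 and 688 to 702 CPM) and lowest in Vortex replicate 2 (106 and 102). Vwf, Erg and Klf2 were all lowest in HSS and all highest in Vortex replicate 2. On the list Fli1 and Gata2 had these extremes as well, and the remaining factors did not. The summed endothelial markers had the same extremes, with 6 of 12 markers lower and 0 higher in HSS by edgeR (10 lower and 1 higher without Vortex replicate 2), beside 7.87% (29.1%) of all genes called, and the part of these markers in the fall of Vwf was not tested. Markers of platelets and megakaryocytes, which also make Vwf, summed to 17.9 to 21.3 CPM in PSS, 22.3 to 23.8 in HSS and 34.1 to 37.6 in Vortex.

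**Figure D5:**
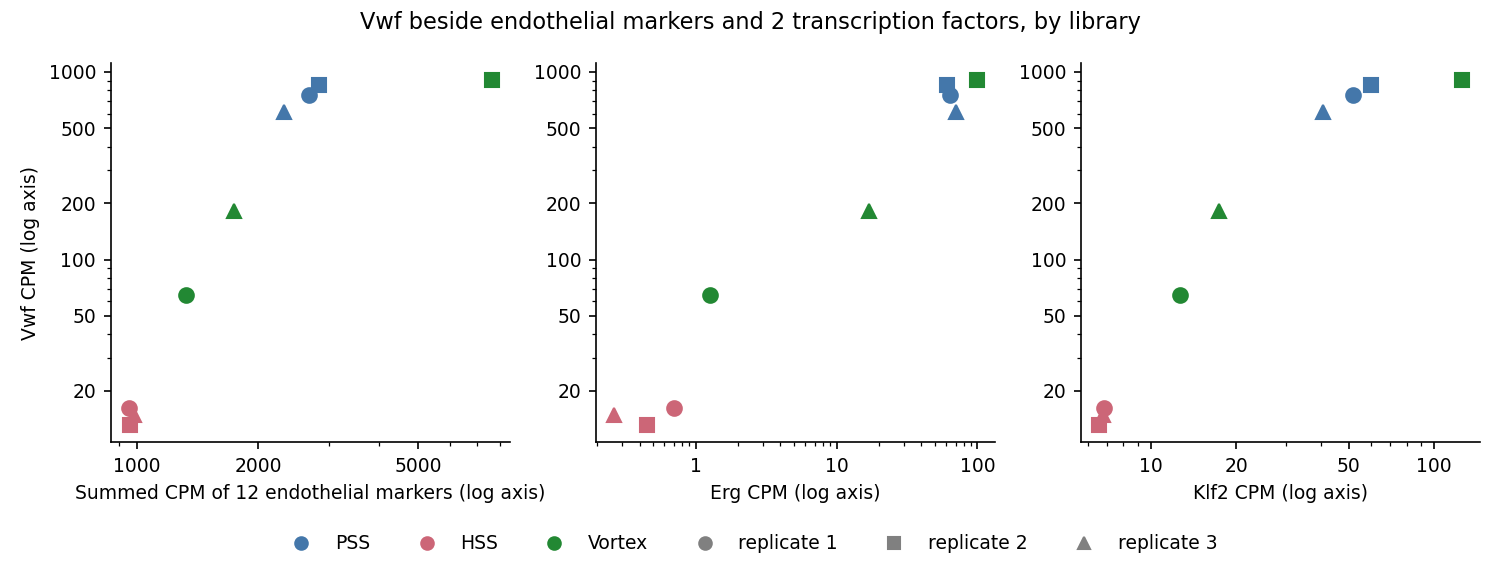
Vwf CPM of each library against the summed CPM of 12 endothelial markers, Erg and Klf2 (log axes). The HSS libraries sit lowest on every axis and Vortex replicate 2 highest.

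Of the AP-1 and NF-kappaB genes on the list, Fosl1 and Nfkb1 were called. Fosl1, an AP-1 subunit, rose by 1.70 in HSS (SE 0.30, adjusted p 0.0118) and by 1.59 in Vortex against PSS (SE 0.30, adjusted p 0.0112). Nfkb1 rose by 1.35 in HSS (adjusted p 0.00653) and by 1.10 in Vortex (adjusted p 0.0112). With all libraries these were the 2 called rises of the list in each comparison against PSS. With Vortex replicate 2 left out both genes stayed higher in Vortex, by 1.76 and 1.22 (adjusted p 0.000634 and 0.000444). A fit of the 6 compared libraries called 0 of the 14 listed factors in Vortex against PSS, beside 0.488% of all genes. The Fosl1 call in HSS was lost without HSS replicate 1 or 2 and the Nfkb1 call in Vortex without PSS replicate 1, with adjusted p up to 0.0601 and 0.0574. Rela, the other main NF-kappaB subunit, had log2 differences of 0.38 and 0.47 that did not pass. With all libraries F3 and Procr, whose windows also held AP-1 letters, were not called by edgeR in either comparison against PSS, and Plaur rose in both. Procr was called lower in HSS without Vortex replicate 1 or 2, with the 6 compared libraries or by the DESeq2 Wald test. The part of the motif letters in these changes was not tested.

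Proteins that act with Vwf were given by a list of 19 genes for the cargo and secretion of Weibel-Palade bodies, of which 17 were tested. In HSS 1 rose and 1 fell, beside 7.87% of all genes called, and in Vortex against PSS 4 rose and 0 fell by edgeR, beside 13.4%. In the latter 8 of the 17 had an unadjusted p under 0.05, beside 4706 of 15774 genes. Without Vortex replicate 2 the counts were 5 higher and 4 lower in HSS (29.1% of all genes called) and 7 higher and 4 lower in Vortex (36.3%). Angpt2, stored with Vwf, fell by 2.68 in HSS (adjusted p 0.00700; 0.051 without HSS replicate 3), while Cracr2a, a calcium sensor of Vwf secretion, rose by 1.94 (adjusted p 0.00548). Selp, the P-selectin stored beside Vwf, read 0.28 to 0.39 CPM in PSS and 2.46, 2.53 and 3.41 in Vortex, a rise of 3.01 (SE 0.38, adjusted p 0.00340). Cd63, a membrane protein of the bodies, rose by 1.20 in Vortex (adjusted p 0.00544). Both Vortex calls held with each library left out in turn. A fit of the 6 compared libraries called 1 of 16 tested genes of this list in Vortex against PSS, so they did not both hold there. F8, the factor that Vwf carries, fell by 2.75 in Vortex (SE 0.34, adjusted p 0.00319), with 3.08 to 4.36 CPM in PSS and 0.49 to 0.57 in Vortex.

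Of 83 listed genes 79 were in the table and 58 were tested. In HSS against PSS 6 were higher and 6 lower, with a median log2 change of -0.06, beside 7.87% of all tested genes called. In Vortex against PSS 10 were higher and 4 lower, with a median of 0.22, beside 13.4%, and in Vortex against HSS 4 were higher and 3 lower, beside 7.04%. Leaving out Vortex replicate 2 made the counts 15 and 16, 21 and 15, and 12 and 5, where 29.1%, 36.3% and 23.9% of all tested genes were called. In Vortex against PSS, a fit of the 6 compared libraries called 1 higher and 1 lower of 55 tested, beside 0.488% of all genes. Of 15 coagulation factors and fibrinogen chains 12 were in the table and 4 were tested, F5, F7, F8 and F10. Beside F8, F5 fell in Vortex by 2.10 (SE 0.46, adjusted p 0.0200, lost without any 1 PSS library or Vortex replicate 3), and F7 was called higher in both comparisons at 0 to 0.19 CPM in PSS and 0.19 to 1.91 elsewhere, and these calls ended when 1 laminar library of either group was left out (adjusted p to 0.172 in HSS and 0.151 in Vortex). Of 7 tested anticoagulant proteins, 0 were called in any of the 3 comparisons by edgeR, and 3, 4 and 1 were called without Vortex replicate 2. With all libraries 2, 2 and 1 of them had an unadjusted p under 0.05, beside 3693, 4706 and 4236 of 15774 genes. Pros1, the cofactor of activated protein C that acts after Thbd and Procr, had log2 differences of -0.06 in HSS and -0.23 in Vortex against PSS (adjusted p 0.863 and 0.362).

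F2r, the thrombin receptor PAR1, which shares its ligand with Thbd, fell in both comparisons against PSS. It read 238 to 309 CPM in PSS, 57.9 to 64.3 in HSS and 64.5 to 113 in Vortex, and fell by 2.23 (SE 0.24, adjusted p 0.00174) and 1.60 (SE 0.23, adjusted p 0.00504), calls that held with each library left out in turn. The Vortex call of F2r was lost when only the 6 compared libraries were fitted, where 0.488% of all genes were called. Among inhibitors of fibrinolysis, 1 of 6 tested rose and 1 fell in each comparison against PSS, and with Vortex replicate 2 left out 2 rose and 1 fell in HSS and 4 rose and 1 fell in Vortex. Of all genes, 7.87% were called in HSS and 13.4% in Vortex, and 29.1% and 36.3% with that library left out. Serpinb2, an inhibitor of Plau, read 0.76 to 1.01 CPM in PSS and 33.8 to 40.7 in HSS, a rise of 5.36 log2 units (adjusted p 0.0162), a call ended by leaving out each PSS or HSS library in turn (up to 0.0937). In Vortex it read 31.7, 0.86 and 23.4 CPM (adjusted p 0.0221, up to 0.0991 with 1 library left out). Serpini1, neuroserpin, an inhibitor of Plat, fell by 1.67 and 1.72 (adjusted p 0.0162 and 0.0111), calls likewise ended, in HSS by leaving out each laminar library in turn and in Vortex by leaving out PSS replicate 1. Serpine2, an inhibitor of both activators, had differences of 0.87 and 0.57 (adjusted p 0.419 and 0.556), and rose in both with Vortex replicate 2 left out, by 0.86 and 1.06 (adjusted p 0.000470 and 0.000255). Of 6 tested plasminogen-binding and clearance genes, 1 rose in HSS and 2 in Vortex (2 rose and 1 fell, then 3 rose, with Vortex replicate 2 left out), beside the same all-gene shares. Eno1, which has near-identical copies and so an uncertain count, was called in both (0.76 and 0.66; adjusted p to 0.098 and 0.103 without PSS replicates 1 or 2 or any 1 HSS library), and Anxa2, a cell-surface partner of Plat and plasminogen, rose by 0.81 in Vortex (adjusted p 0.0197; up to 0.102 without PSS replicates 1 or 2). With Vortex replicate 2 left out, Selp, Cd63, F8, F5, F7, F2r, Serpinb2, Serpini1, Eno1 and Anxa2 kept direction and call in Vortex against PSS, with adjusted p between 4.51e-07 and 0.00443. With the GC trend of each library removed, the calls of F7, Serpini1, Eno1 and Anxa2 in Vortex against PSS were lost, where 9.41% of all genes were called. Those of F7 and Eno1 in HSS against PSS were lost as well, where 9.32% were called.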

How the data were processed

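Polyadenylated RNA of bEnd.3 cells was sequenced in 9 libraries, grouped by their titles into PSS, HSS and Vortex with 3 each. Per the submitters' processing notes HISAT2, HTSeq 0.13.5 and the build GRCm39 were named; the strand setting of counting is not stated there. Raw counts per gene and library were deposited by the authors, with FPKM values beside them. The deposited FPKM were checked against the counts: for 100% of genes they imply a single whole-number length (relative tolerance 1e-06), so they are scaled by length and library total only. No exon of another gene overlaps an exon of the 8 genes in the GENCODE annotation of GRCm38.

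Counts were tested in R 4.3.3 with edgeR 4.0.16 (filterByExpr, TMM, robust quasi-likelihood, 1 mean per group over all 9 libraries), with Benjamini-Hochberg adjustment over 15774 genes and calls under 0.05. SE is the log2 fold change over the square root of F, and the biological coefficient of variation was 0.350. CPM are TMM scaled; log2 CPM for correlations use a prior count of 2. Ratios used exact permutation over libraries. 1 gene of the lists and its ratio are not reported here. Totals of 17407217 to 22965802 counts limit precision for genes of few counts only. The procedure was also run on simulated counts. These held no outlying library and no GC trend, so that run cannot bear on calls that depend on Vortex replicate 2.

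All 8 genes are named, with the 3 smallest p per list in each comparison against PSS, 10 genes given in any case, and the 2 genes of most like pattern; part of these is printed. The 8 genes and all lists were chosen with earlier results of these data known. Alternatives were DESeq2 1.42.0 (size factors or Wald test), no filter beyond 1 count, limma 3.58.1 on log2 FPKM plus 1 or 0.1, the 6 compared libraries, the replicate block, and each library left out. Removal of a GC trend (lowess span 0.3), a fit of 2 groups without Vortex replicate 2 and ratios without each library were added after the data were seen. Replicate numbers showed no pairing of the libraries. Promoter windows are from RefSeq.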

Additional observations from a re-analysis of the deposited data

How the results depend on the processing

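Counts of called genes moved widely with the libraries in the fit. In HSS against PSS the 1242 calls became 2456 with DESeq2 and 6233 with the 6 compared libraries, and 285 to 4730 with 1 library left out; of the 8 genes, 2 called became 4, 4 and 0 to 4. In Vortex against PSS the 2107 calls became 3489, 74 and 519 to 5888, and 3664 with 2 groups and no Vortex replicate 2; 3 of 8 became 0 with 6 libraries, 5 with 2 groups and 1 to 5 with 1 library left out. In Vortex against HSS the 1111 calls became 2700, 66, 25 to 3887 and 4201, and 713 without a filter; 4 of 8 became 0 with 6 libraries, 7 with 2 groups, 2 without a filter, 2 and 2 by limma with a pseudocount of 1 and 0.1, and 0 to 5 with 1 library left out. With the replicate number as a block, calls were 772, 1258 and 357, and 1 of the 8 genes in Vortex against PSS and 0 in Vortex against HSS. Correlations between libraries of the same number ran from -0.12 to 0.12, and of different numbers from -0.16 to 0.12. No pairing by number was seen, and so few libraries cannot exclude it. Log2 differences that changed sign were, in Vortex against PSS, Procr (-0.0025 and -0.0041 by limma with 1 and 0.1, -0.43 with 2 groups, and -0.43 to 0.75 with 1 library left out) and F3 (0.29 with 2 groups, -1.20 to 0.28 with 1 left out), and, in Vortex against HSS, F3 (-0.21 and -0.57 by limma, -0.40 to 1.06 with 1 left out) and Tfpi (0.18 with the GC trend removed). With 1 library left out, the log2 ratio differences in HSS against PSS, Vortex against PSS and Vortex against HSS ran from -0.012 to 0.88, -0.99 to 1.39 and -1.34 to 1.04 for Tfpi over F3, from -0.65 to -0.58, -0.91 to 0.072 and -0.29 to 0.69 for Plau over Plat, and from 0.79 to 1.20, 1.21 to 2.87 and 0.26 to 1.93 for Thbd over F3. The cause of these changes was not tested. F3 had 23 counts in Vortex replicate 2, the library with the largest total (22965802 counts), which limits the precision of F3 there.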
